A study of Mus musculus with 34 samples.

Results

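Transcript levels in whole testes of the mouse were compared with those in seminiferous tubules isolated from the testis and left untreated. The arrays were chosen by sample title: 2 arrays of whole testes and 8 of untreated tubules, 2 for each of 4 stage groups of the seminiferous epithelium, out of 34 arrays in 17 groups. Both kinds of sample came from C57BL6/j mice aged 6 to 8 weeks, and neither received a virus or retinoic acid. The tubule groups were stages I-III and IV-VI, then VII-VIII, then IX-XII. The titles of the third group read VI-VIII where its source names read VII-VIII, and VII-VIII is used here. The series' design text calls the 2 samples of a group biological duplicates and does not say whether animals were pooled or shared between groups. How tubules were isolated and staged is not given in the sources used here. The other groups serve only as reference levels: cells sorted as Sertoli cells from WT and N3KO testes, cultured Sertoli cells given vehicle or retinoic acid, and tubules of testes injected with a Venus or a dnRARa lentivirus.

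The testis has a tubular and an interstitial compartment. Seminiferous tubules hold Sertoli cells and the germ cells, from spermatogonia to elongated spermatids, inside a basement membrane and a layer of contractile peritubular myoid cells. The interstitium holds steroid-producing Leydig cells, resident macrophages, blood and lymph vessels and connective tissue. Leydig cells take up cholesterol, carry it into mitochondria with StAR, cleave its side chain with the product of Cyp11a1 and convert the pregnenolone to testosterone. Isolating tubules leaves interstitial tissue behind, and the comparison asks which transcripts of the testis are then fewer.

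A level is log2 of the background-corrected spot signal minus log2 of the 75th percentile of its array. A difference is the mean level in whole testes minus the mean of the 4 stage group means, given in log2 ± SE. Of 21491 genes tested with limma, 42.4% passed at a Benjamini-Hochberg adjusted p under 0.05, 27.8% being higher in whole testes and 14.6% lower. With a difference of at least 2-fold as well, 11.8% were higher and 2.54% lower. Both testes arrays lay above all 8 tubule arrays for 21.9% of genes and below all 8 for 11.5%. The split depended on scaling: 5985 genes were higher and 3127 lower, but 3200 and 5926 when arrays were scaled to their median, 4417 and 4070 after quantile normalization, and 3976 and 3350 after normexp background correction. The median difference of all genes was 0.214, against -0.085, 0.08 and 0.066 under those scalings, and the lists below are read beside it.

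The testes arrays lay on a slide scanned on another day than the 3 slides of the tubules, so slide, scan day and kind of sample cannot be told apart. Spots well above background made up 67.76 and 69.43% on the testes arrays and 54.89 to 62.35% on the tubule arrays. The SD of the difference between replicates over all genes was 0.24 for testes and 0.474 to 0.690 for the tubule groups. Without testes replicate 1 or testes replicate 2, 3009 or 2608 genes were called in place of 9112, the lone array being taken to vary like the other groups. With tubules as 1 group and slide as a random block, 1581 were called. For each list these 3 fits are given in that order as the reduced fits.

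Differences among dim genes were mostly in 1 direction. In the dimmest of 10 bins by mean level, the median difference was 1.00, with 47.7% of genes higher in whole testes and 1.95% lower. In bins 5 to 9 the medians lay between -0.02 and 0.11. In the brightest bin the median was 0.15, with 31.9% higher and 12.9% lower. The part of background and scaling in this slope was not tested, and of the genes named below 8030462N17Rik, Atf3, Cd163, Cd3e, Cd4, Clic3, Cst11, Dgke, Dpt, Fosb, Gdnf, Gli1, Ifit3, Isg15, Lcn9, Mdga2, Ms4a1, Notch1, Rarb and Tal1 are in the dimmest bin.

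**Figure D1:**
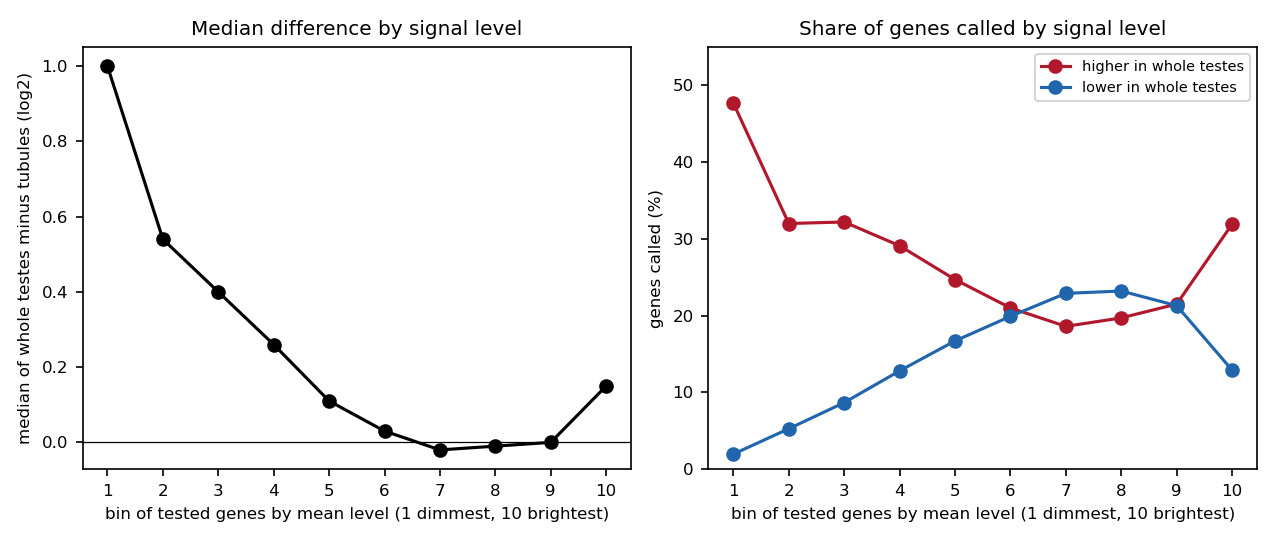
Tested genes in 10 bins by mean level (bin 1 dimmest, bin 10 brightest), with the median of whole testes minus untreated tubules (log2) on the left and the percentage of genes called higher (red) or lower (blue) on the right. The dimmest bin has a median of 1.00 and 47.7% called higher, and bins 6 to 9 lie near 0.

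Gene lists were read by compartment. Of 78 tested genes of interstitial cell types, 42 (53.8%) were higher in whole testes and 3 (3.85%) lower, with a median difference of 0.87. Of 80 genes of Sertoli and germ cells, 27 (33.8%) were higher and 13 (16.2%) lower, with a median of 0.25. The 21 genes of the tubule wall had a median of 0.30, with 7 higher and 1 lower. These counts, and those of every list below, stand beside 27.8% of all genes higher and 14.6% lower.

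Among the lists of more than 3 tested genes, that of Leydig cell steroid synthesis had the highest median. Of 11 genes of steroid synthesis tested, 7 were higher in whole testes, each by more than 2-fold, and 0 were lower. The list median was 2.56 against 0.214 for all genes, and 5, 4 and 6 were called higher in the reduced fits. All 7 lay above every tubule array, and 6 passed against each of the 4 stage groups, the exception being Fdxr against stages IX-XII. Of all genes tested, 21.9% lay above every tubule array and 8.66% passed as higher against each stage group. In bulk RNA, fewer cells of a type and less RNA per cell cannot be told apart.

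Cyp11a1, which encodes the side-chain cleavage enzyme, read 2.25 and 2.31 in testes and -1.52 to -0.50 in tubules, with a median of -1.09. The groups did not overlap. The difference was 3.34 ± 0.34, or 10.1-fold (adjusted p = 0.000825), and its stage groups gave 3.27 to 3.40.

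Cyp17a1, the hydroxylase and lyase on the way to androgens, read 3.69 and 3.65 in testes and -0.82 to 1.21 in tubules, median 0.20. Again no tubule array reached the testes. The difference was 3.45 ± 0.54, or 10.9-fold (adjusted p = 0.00349).

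Hsd3b1, a hydroxysteroid dehydrogenase that turns pregnenolone into progesterone, read 3.30 and 3.35 in testes and -1.02 to 0.92 in tubules, median -0.08. It differed by 3.46 ± 0.55 (adjusted p = 0.00361). Its close relative Hsd3b6 read 0.16 and 0.03 against -3.13 to -1.83 and differed by 2.56 ± 0.42 (adjusted p = 0.00381). Both lay above all 8 tubule arrays, and since their sequences are alike, cross-hybridisation between their probes was not tested.

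Hsd17b3, which makes testosterone from androstenedione, read 1.41 and 1.42 in testes and -2.35 to -0.55 in tubules. It differed by 2.75 ± 0.47 (adjusted p = 0.00447, and 0.0516 without testes replicate 2). Star, the carrier of cholesterol into mitochondria, read 1.92 and 1.84 against -1.45 to 0.21. Its difference was 2.59 ± 0.50 (adjusted p = 0.0072, but 0.0667 and 0.0658 without testes replicate 1 and 2), and its second probe gave 3.28.

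The redox partners of these enzymes, which many cell types express, differed less. Fdxr, ferredoxin reductase, read 2.54 and 2.54 in testes and 0.62 to 2.08 in tubules, a difference of 1.27 ± 0.25 (adjusted p = 0.00717, and 0.0663 and 0.0695 without testes replicate 1 and 2). Fdx1, ferredoxin, read 3.83 and 3.86 against 3.51 to 3.92, and the groups overlapped (0.17 ± 0.08, adjusted p = 0.134). Cyb5a, Por and Srd5a1 differed by 0.21, -0.11 and -0.08 and did not pass. Por, however, passed as lower with median scaling, with normexp and without stages IX-XII (adjusted p 0.0296, 0.0275 and 0.04).

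**Figure D2:**
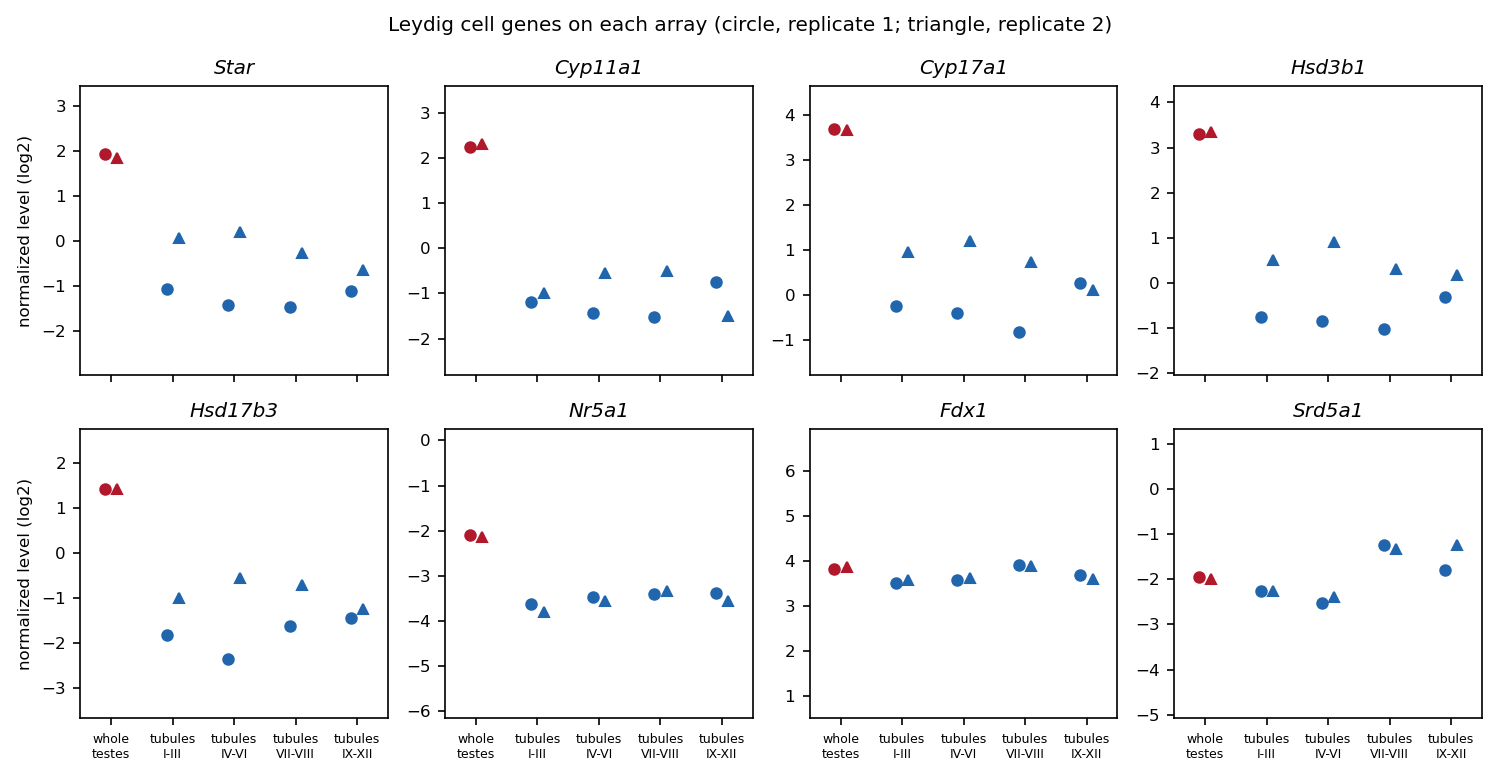
Level (log2, relative to the array's 75th percentile) of 8 Leydig list genes on each array of whole testes (red) and of untreated tubules by stage group (blue), circles for replicate 1 and triangles for replicate 2. Axes have equal span. Star, Cyp11a1, Cyp17a1, Hsd3b1, Hsd17b3 and Nr5a1 lie above all tubule arrays in testes, while Fdx1 and Srd5a1 overlap.

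Of 10 genes of Leydig cell identity and regulation, Insl3 had no probe of its own name and Lhcgr, the luteinizing hormone receptor, did not pass the detection filter. Of the 8 tested, 7 were higher, each by more than 2-fold, and 0 lower (median 1.65, reduced fits 4, 3 and 4). Nr5a1, the nuclear receptor SF-1 that drives steroidogenic genes and is also made by Sertoli cells, read -2.10 and -2.13 in testes and -3.81 to -3.33 in tubules. It differed by 1.40 ± 0.10 (adjusted p = 0.000297). Scarb1, which takes up cholesterol esters from lipoproteins, differed by 1.38 ± 0.12, and Prlr, the prolactin receptor, by 1.36 ± 0.16. Prlr did not pass with normexp (adjusted p = 0.158).

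Vcam1, an adhesion molecule of Leydig cells, read 0.54 and 0.55 in testes and -2.05 to -0.92 in tubules, a difference of 1.90 ± 0.32 (adjusted p = 0.00448, and 0.0523 without testes replicate 2). Sult1e1, an estrogen sulfotransferase, read 1.48 and 1.70 against -1.91 to 0.03 and differed by 2.51 ± 0.57 (adjusted p = 0.0127). Ren1, renin, and Agt, its substrate angiotensinogen, differed by 2.21 ± 0.55 and 2.04 ± 0.59. Sult1e1, Ren1 and Agt did not pass without either testes array (adjusted p 0.0825 to 0.159), nor Agt without replicate 1 of stages VII-VIII (0.0535). Hsd11b1, a glucocorticoid-converting enzyme, read -3.38 and -3.25 against -5.53 to -2.10 and did not pass (0.74 ± 0.99, adjusted p = 0.569).

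A probe carrying the accession of Jak3 read 7.27 and 7.25 in testes and 3.02 to 4.53 in tubules, 11-fold apart (3.46 ± 0.44, adjusted p = 0.00163). In RefSeq, Jak3 shares its end with Insl3, the peptide hormone gene of Leydig cells, and which transcript the probe measured could not be resolved. It was picked after its values were seen.

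Promoter windows of 250 bases before the start of transcription (RefSeq, build GRCm38.p6) are shown for 3 of these genes. SF-1 is known to bind DNA around the core AGGTCA. Shown are the 2 windows that held this core and 1 that did not. The core was searched on both strands and is in capitals. It occurred in 4607 of 32851 windows (14%) of all genes in the table. Of the 14 Leydig genes that were higher, 9 had 12 windows, and the core was in 2 windows of 2 genes. Whether the core was more frequent there than in all windows was not tested. Star, Cyp17a1, Nr5a1, Scarb1 and Vcam1 had no window.
Cyp11a1, second start, chr9:58014702-58014951, plus strand: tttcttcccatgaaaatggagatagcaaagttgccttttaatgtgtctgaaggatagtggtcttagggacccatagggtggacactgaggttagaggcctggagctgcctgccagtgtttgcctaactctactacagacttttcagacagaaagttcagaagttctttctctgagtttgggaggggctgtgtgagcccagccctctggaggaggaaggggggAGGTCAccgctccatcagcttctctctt
Sult1e1, chr5:87591612-87591861, minus strand: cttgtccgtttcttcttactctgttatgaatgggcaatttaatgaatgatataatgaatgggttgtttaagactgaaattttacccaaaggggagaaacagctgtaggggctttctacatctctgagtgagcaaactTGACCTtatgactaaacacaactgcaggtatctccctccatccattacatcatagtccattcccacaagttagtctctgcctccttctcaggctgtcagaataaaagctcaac
Hsd3b1, chr3:98859795-98860044, minus strand: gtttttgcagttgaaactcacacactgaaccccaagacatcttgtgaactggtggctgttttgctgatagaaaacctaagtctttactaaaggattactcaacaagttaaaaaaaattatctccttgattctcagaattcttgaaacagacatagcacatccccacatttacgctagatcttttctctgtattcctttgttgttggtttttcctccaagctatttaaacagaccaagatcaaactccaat
In the window of the second Cyp11a1 start the core began 28 bases before that start, on the strand of the gene. The window of the first Cyp11a1 start, not shown, had no core. In the Sult1e1 window the core lay on the other strand, 113 bases before the start, and the Hsd3b1 window had none.

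Leydig transcripts were still measured in the tubules, and unevenly. The median level of the 11 steroid genes was 2.25 on both testes arrays. On replicate 1 it was -0.75 in stages I-III, -0.84 in IV-VI, -1.02 in VII-VIII and -0.32 in IX-XII, and on replicate 2 it was 0.50, 0.92, 0.31 and 0.11. Replicate 2 was thus the higher array in every stage group, as it was for the identity list (-2.64 to -1.79 against -1.38 to -1.14). Star read -1.45 to -1.06 on the replicate 1 arrays and -0.64 to 0.21 on the replicate 2 arrays. Replicate 2 exceeded replicate 1 in all 4 stage groups for 5 of 11 steroid genes, 5 of 8 identity genes and 8 of 13 endothelial genes, against 19.3% of all genes tested.

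The Leydig lists were higher still in the cells sorted as Sertoli cells from WT testes, on the same slide as the testes. There the steroid list had a median of 5.95, and all 11 steroid and 8 identity genes exceeded whole testes, against 44.8% of all genes. This was not particular to the Leydig lists. All 13 endothelial, all 8 vascular mural, 16 of 18 macrophage and 9 of 14 fibroblast genes did so too, but 0 of 4 lymphocyte and 0 of 2 lymphatic genes. In Venus tubules the steroid list had stage medians of -0.62 to 0.66, near the -0.36 to 0.04 of untreated tubules. Against Venus tubules, 8 of the 11 were higher in testes and 2 lower.

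**Figure D3:**
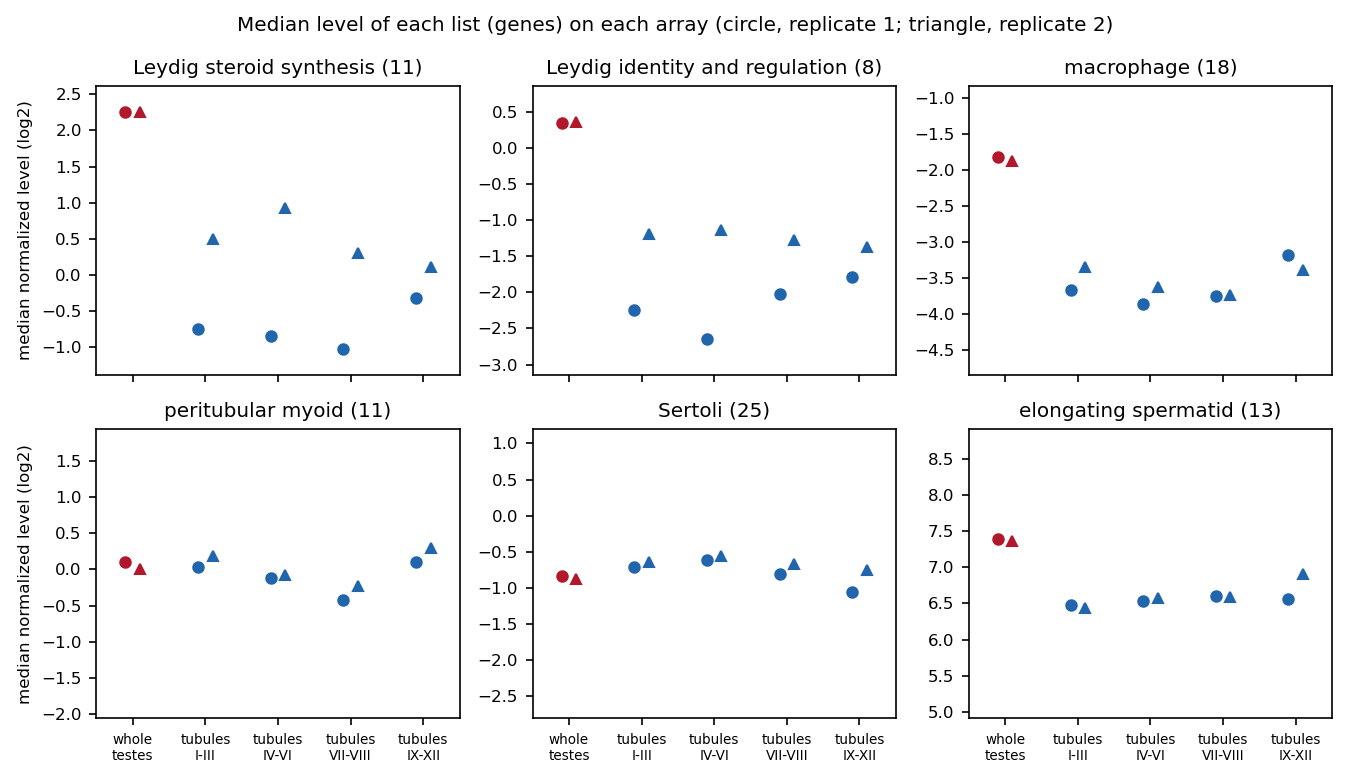
Median level (log2, relative to the array's 75th percentile) of the tested genes of 6 lists, with their number, on each array of whole testes (red) and of untreated tubules by stage group (blue), circles for replicate 1 and triangles for replicate 2. Axes have equal span. Both Leydig lists are lower on all tubule arrays and lower on replicate 1 than on replicate 2, the macrophage list is lower on all tubule arrays, and the Sertoli and myoid lists stay near their testes level.

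The macrophage list held 22 genes, of which 19 were named on the array. Of 18 tested, 13 were higher in whole testes, 10 of them by more than 2-fold, and 0 lower, with a median of 1.25 and 9, 9 and 10 in the reduced fits. Of the 18, 10 lay in the 3 dimmest bins, whose median differences over all genes were 1.00, 0.54 and 0.40.

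C1qa, a chain of complement C1q that tissue macrophages secrete, read -0.80 and -0.94 in testes and -3.93 to -3.33 in tubules. The groups were apart by 2.76 ± 0.19, or 6.78-fold (adjusted p = 0.000281). C1qc, another chain, read -0.31 and -0.46 against -3.13 to -2.41 and differed by 2.41 ± 0.21 (adjusted p = 0.000503).

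Csf1r, the receptor that sustains macrophages, read -2.0 and -2.06 in testes and -4.68 to -3.80 in tubules (2.13 ± 0.16, adjusted p = 0.00033). Lyz2, myeloid lysozyme, read 3.40 and 3.25 against 0.67 to 1.30 (2.34 ± 0.17, adjusted p = 0.000323). Cd163, a haemoglobin scavenger receptor of resident macrophages, read -2.39 and -2.34 against -6.95 to -4.77 (3.63 ± 0.60, adjusted p = 0.00408). It is in the dimmest bin and was well above background on 2 of 8 tubule arrays.

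Other macrophage markers, named after their values were seen, gave no call. Adgre1, a surface receptor of mature macrophages, read -0.94 and -0.99 in testes and -2.71 to 0.38 in tubules (0.37 ± 0.46, adjusted p = 0.541). Mrc1, the mannose receptor, differed by 0.25 ± 0.23, and Cx3cr1, the fractalkine receptor, by 0.24 ± 0.43. In Venus tubules the list was closer to testes, with stage medians of -2.47 to -2.08 against -3.82 to -3.38 in untreated tubules and -1.86 in testes. There 7 of the 18 were higher in testes and 1 lower, and C1qa, C1qc and Csf1r did not pass (adjusted p 0.11, 0.589 and 0.897).

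The 4 lymphocyte genes tested were all in the dimmest bin, and 2 were higher (reduced fits 1, 1 and 0). Cd4, of helper T cells and some macrophages, differed by 1.09 ± 0.11, but the mean of its probes gave -0.02. Cd3e, of the T cell receptor complex, was not well above background on any tubule array and was at least 2.15-fold higher in testes (adjusted p = 0.021, and 0.107 and 0.144 without testes replicate 1 and 2). Such a bound compares the testes mean with a floor for each tubule array, the dimmest signal there that counted as detected or the gene's own signal where that was brighter.

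Genes of interferon response and antigen presentation were higher in 6 of 12 cases and lower in 0 (median 1.07, reduced fits 1, 1 and 2). B2m, the light chain of MHC class I, read 0.81 and 0.83 in testes and -0.97 to -0.44 in tubules (1.58 ± 0.17, adjusted p = 0.000901). Bst2, an interferon-induced membrane protein, differed by 1.42 ± 0.32 (adjusted p = 0.0119, and 0.0837 and 0.0982 without testes replicate 1 and 2). Ifit3 and Isg15, interferon-induced genes of the dimmest bin seen on no tubule array, were at least 2.42-fold and 1.66-fold higher, and neither passed without either testes array (adjusted p 0.056 to 0.104).

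Vessel genes differed less than Leydig and macrophage genes. Of 13 endothelial genes tested, 4 were higher, a share of 30.8% beside 27.8% of all genes, and 0 lower (median 0.43, reduced fits 2, 2 and 1). Eng, the TGF-beta co-receptor endoglin, read -1.88 and -1.98 in testes and -4.31 to -3.38 in tubules (1.89 ± 0.27, adjusted p = 0.00236). Plvap, a protein of vessel fenestrae, differed by 1.23 ± 0.12 and did not pass with normexp (adjusted p = 0.113). Egfl7, a factor secreted by endothelium, and Cldn5, its tight junction claudin, differed by 0.88 ± 0.15 and 1.13 ± 0.37, and neither passed without either testes array. Cldn5 was also lost without replicate 1 of any stage group (adjusted p 0.0609 to 0.0683). The vascular receptors Kdr, Flt1 and Tek, named after their values were seen, differed by 0.09, 0.08 and -0.08. Kdr's mean joins opposite differences, -0.91 and -1.10 against stages I-III and IV-VI (adjusted p 0.0251 and 0.0132) and 1.28 and 1.07 against VII-VIII and IX-XII (0.00788 and 0.0138).

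Neither lymphatic gene tested passed: Ccl21a, a chemokine, differed by 0.46 ± 0.41 and Prox1, the lymphatic regulator, by 0.35 ± 0.55. Among 8 genes of vascular mural cells 2 were higher and 1 lower (median -0.19, reduced fits 1, 0 and 0 higher). These shares, 25% higher and 12.5% lower, were near the 27.8% and 14.6% of all genes. Higd1b, a pericyte marker, differed by 1.30 ± 0.29 and Cspg4, the NG2 proteoglycan, by 0.61 ± 0.09. Mcam, an adhesion molecule, was lower (-0.51 ± 0.11). Higd1b and Mcam did not pass without either testes array, and Cspg4 did not pass without testes replicate 2 (adjusted p = 0.0579). Pdgfrb, the pericyte PDGF receptor, read -2.95 and -2.88 against -2.78 to -1.90 (-0.63 ± 0.27, adjusted p = 0.101), and passed as lower under the 3 other scalings (0.0201 to 0.0338).

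Fibroblast and fibrillar matrix genes were mixed, with 7 of 14 higher and 2 lower (median 0.61, reduced fits 2, 3 and 2 higher). Mgp, matrix Gla protein, read 0.97 and 0.97 in testes and -1.83 to -0.68 in tubules (2.32 ± 0.33, adjusted p = 0.00232). Col6a1, a collagen VI chain, differed by 0.59 ± 0.09. Dpt, dermatopontin, was seen on no tubule array and lay in the dimmest bin, with levels of -5.12 and -5.36 in testes (adjusted p = 0.00396). The testes mean of Dpt did not exceed the floor of the tubule arrays, so no bound on its fold can be given. Fbln1, fibulin, went the other way, at -1.78 and -1.84 against -1.52 to -0.32 (-0.82 ± 0.15, adjusted p = 0.00586), and did not pass without either testes array (0.0567 and 0.0706).

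Of the 21 tubule wall genes 33.3% were higher and 4.76% lower, beside 27.8% and 14.6% of all genes. Of 11 peritubular myoid genes 3 were higher and 1 lower (median 0.21, and -0.09 with median scaling; reduced fits 1, 1 and 0 higher). Actg2, smooth muscle gamma actin, read 3.89 and 3.89 in testes and 2.77 to 3.42 in tubules (0.70 ± 0.09, adjusted p = 0.00149). Des, desmin, and Tpm2, a tropomyosin, differed by 0.85 ± 0.27 and 0.70 ± 0.22 and did not pass without either testes array or without any of several tubule arrays. Synm, synemin, was lower (-1.12 ± 0.21), while its second probe gave -0.26. Acta2 and Myh11, smooth muscle actin and myosin, named after their values were seen, differed by 0.12 ± 0.12 and 0.11 ± 0.11. Acta2 was 0.68 against stages IV-VI and -0.55 against stages IX-XII (adjusted p 0.0118 and 0.0232).

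Of 10 basement membrane genes 4 were higher and 0 lower (median 0.49, reduced fits 2, 2 and 2). The share higher was 40%, beside 27.8% of all genes. Lamb2, a laminin chain, read 1.35 and 1.41 in testes and -0.08 to 0.44 in tubules (1.23 ± 0.11, adjusted p = 0.00057). The paired collagen IV chains Col4a2 and Col4a1 differed by 1.10 ± 0.15 and 0.76 ± 0.15, and Lama2, another laminin chain, by 0.49 ± 0.13. Col4a1 and Lama2 did not pass without either testes array.

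**Figure D4:**
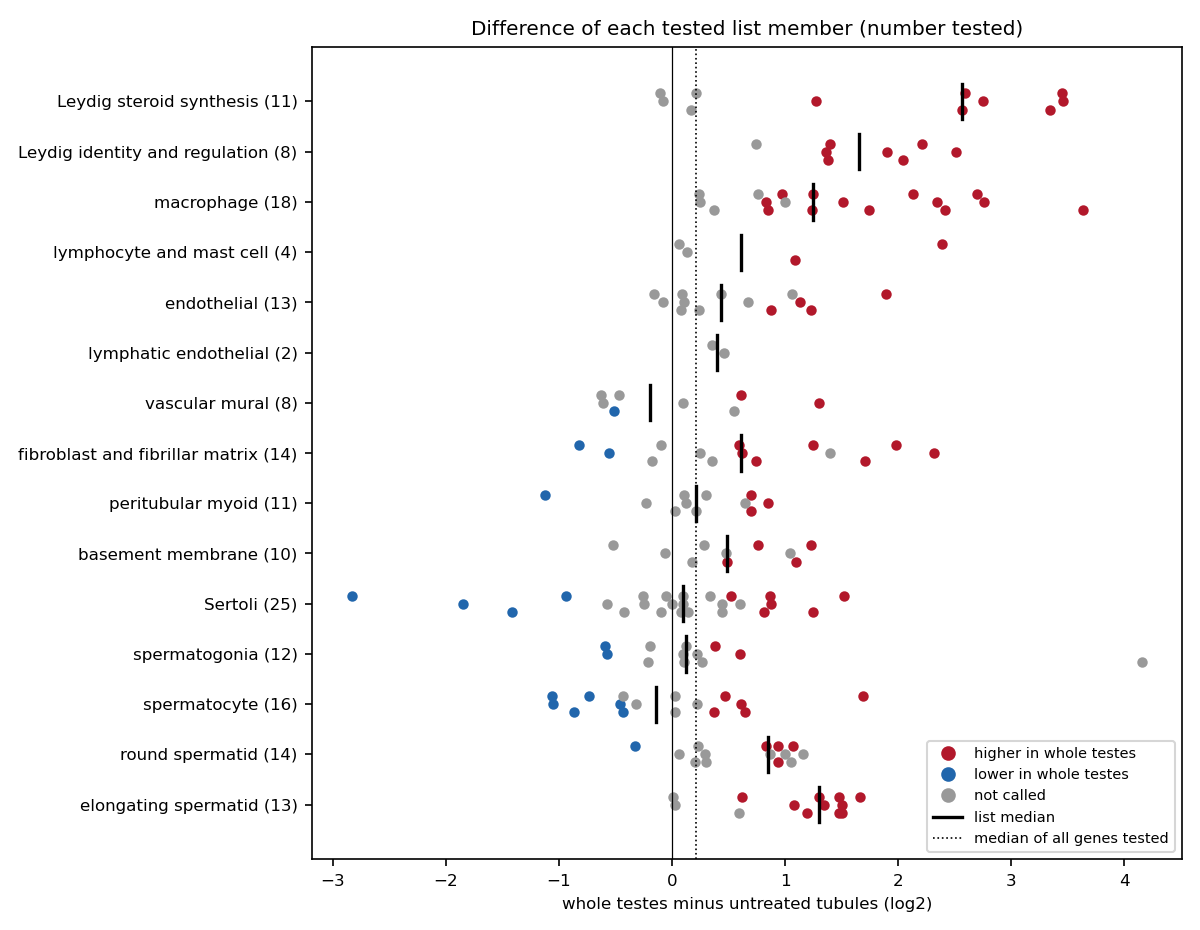
Whole testes minus untreated tubules (log2) for each tested member of 15 cell type lists, coloured by call, with the list median as a bar, 0 as a solid line and the median of all genes (0.214) dotted. The highest list medians are those of both Leydig lists, the elongating spermatid list and the macrophage list, none with a gene called lower. The Sertoli and spermatocyte lists hold genes called in both directions.

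Sertoli cell genes went both ways: of 25 tested, 6 were higher, 4 lower and 15 not called (median 0.10, reduced fits 5, 4 and 2 higher). These shares, 24% higher and 16% lower, were near the 27.8% and 14.6% of all genes. The list median was -0.04, -0.20 and -0.07 with quantile, median and normexp scaling. Cst9, testatin, read 2.66 and 2.65 in testes and 5.09 to 5.87 in tubules, so that it was 7.10-fold lower in testes (-2.83 ± 0.23, adjusted p = 0.000455). Of the junction gene Tjp1, the used probe differed by -1.41 ± 0.10 and the other by 0.64. Clu, clusterin, read 6.03 and 6.00 against 4.90 to 5.32 (0.88 ± 0.09, adjusted p = 0.000846). Gdnf, the stem cell niche factor, was seen on no tubule array (adjusted p = 0.00111). Its testes mean did not exceed the floor of the tubule arrays, so no bound on its fold can be given.

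The Sertoli transcription factors did not move together. Sox9 read -0.84 and -0.78 in testes and -1.13 to -0.58 in tubules, a difference of 0.00 ± 0.12, with probes from -0.24 to 0.69. Wt1 differed by 0.10 ± 0.12, and Dmrt1, also a germ cell gene, by -1.85 ± 0.28 (adjusted p = 0.00305), both named after their values were seen. Against Venus tubules 1 Sertoli gene was higher in testes and 17 were lower.

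Germ cell lists differed from one another. Among 12 spermatogonial genes 2 were higher (16.7%, beside 27.8% of all genes) and 2 lower (16.7%, beside 14.6%; median 0.12, and -0.11, -0.18 and -0.03 under the other scalings; 0 higher in each reduced fit). Dazl and Id4, genes of germ cell translation and of stem cell maintenance, differed by -0.59 ± 0.12 and -0.57 ± 0.12, and Crabp1 and Sohlh2, a retinoid carrier and a differentiation factor, by 0.60 ± 0.13 and 0.38 ± 0.10. None of the 4 passed without either testes array. Nanos3, a spermatogonial RNA regulator, read 1.31 and 1.29 in testes but -6.33 to -0.14 in tubules, with replicates of stages IX-XII at -0.14 and -6.14, and did not pass (4.16 ± 1.92, adjusted p = 0.118). It passed as higher with normexp, all 34 arrays in 1 model and Venus tubules (limma adjusted p 0.0381, 0.00614 and 4.36e-08). In most other alternatives it did not pass.

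Of 16 spermatocyte genes 5 were higher (31.2%) and 6 lower (37.5%; median -0.14, reduced fits 2, 1 and 1 higher). Hormad1, of the meiotic chromosome axis, read 0.92 and 1.00 in testes and 1.72 to 2.26 in tubules (-1.06 ± 0.09, adjusted p = 0.00051), and Mybl1, a meiotic regulator, differed by -0.87 ± 0.13. Ldhc, the germ cell lactate dehydrogenase, read 8.61 and 8.83 against 6.79 to 7.49 (1.69 ± 0.16, adjusted p = 0.00108). Hspa2, a spermatocyte chaperone, differed by 0.61 ± 0.09. Ldhc and Hspa2 did not pass with normexp (adjusted p 0.0659 and 0.456).

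Of 14 round spermatid genes 4 were higher (28.6%) and 1 lower (7.14%; median 0.85, reduced fits 2, 2 and 1 higher), but 12 and 10 were higher without stages IX-XII replicate 1 and 2. Over all genes 27.8% were higher and 14.6% lower. Tekt1, a flagellar tektin, read 7.81 and 7.83 in testes and 6.68 to 7.03 in tubules (0.94 ± 0.10, adjusted p = 0.000925). Klhl10, a spermatid ubiquitin ligase adaptor, differed by 0.94 ± 0.13, Tssk1, a spermatid kinase, by 1.07 ± 0.22 and Catsper4, of the sperm calcium channel, by 0.83 ± 0.25. Tssk1 and Catsper4 did not pass without either testes array, nor Tekt1 with quantile scaling (adjusted p = 0.309).

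Of 13 elongating spermatid genes 10 were higher (76.9%) and 0 lower (median 1.30, reduced fits 9, 9 and 6), but 5 were higher and 2 lower with either quantile or normexp scaling (medians 0.28 and 0.20). Of the 13, 11 are in the brightest bin. Prm2, a protamine, read 9.29 and 9.43 in testes and 7.61 to 8.27 in tubules (1.5 ± 0.14, adjusted p = 0.000558), and became -0.19 with normexp. Tnp1, a transition protein, was saturated on both testes arrays, at 9.39 and 9.52 against 7.11 to 8.68, and so was at least 2.79-fold higher (adjusted p = 0.00118), but its difference was -0.06 with quantile scaling. Hmgb4, an HMG box protein, and Odf2, of the outer dense fibre, differed by 1.5 ± 0.14 and 1.48 ± 0.15. Of the 13, 9 were higher in whole testes than in all 16 other groups, against 6.77% of all genes.

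Of 3 red cell genes tested, Hba-a1 and Alas2 were higher in testes, while Slc4a1, an anion exchanger, did not pass (0.65 ± 0.26, adjusted p = 0.0831). Hba-a1, an alpha globin, read 0.26 and 0.69 in testes and -4.41 to -1.95 in tubules (3.41 ± 0.54, adjusted p = 0.00359). Hbb-bt, a beta globin outside the list and among the largest rises, read 1.44 and 1.85 against -4.31 to -1.5 (4.25 ± 0.75, adjusted p = 0.00497, and 0.0596 without testes replicate 2). Alas2, the erythroid haem synthesis enzyme, read 1.32 and 1.23 in testes, -5.32 and -5.37 in stages VII-VIII and 0.73 to 1.90 on the other 6 tubule arrays. It was well above background on neither array of stages VII-VIII, and its difference of 1.64 ± 0.12 became -0.02 without them.

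Other tissues the dissection could bring gave few tested genes. The epididymal genes Cst11 and Lcn9 were higher (1.66 ± 0.16 and 0.90 ± 0.29), both in the dimmest bin, and Lcn9 was lost in most alternatives. Bnc1, of mesothelium and germ cells, was lower (-1.31 ± 0.22). S100b, of Schwann cells, read -1.81 and -1.76 against -4.01 to -2.61 (1.64 ± 0.26, adjusted p = 0.0037). Of the fat cell genes Plin1, perilipin, differed by 1.64 ± 0.41 and Adipoq, adiponectin, by 0.50 ± 0.10. Plin1 and Adipoq did not pass without either testes array.

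Sterol handling beyond the steroid enzymes was higher in 4 of 9 genes and lower in 0 (median 0.93, reduced fits 2, 3 and 2). Apoe, a lipoprotein ligand, read 3.78 and 3.78 in testes and 0.69 to 2.14 in tubules (2.03 ± 0.20, adjusted p = 0.000715). Abca1, a cholesterol exporter, differed by 1.64 ± 0.28, Lipe, hormone-sensitive lipase, by 1.24 ± 0.20 and Lipa, lysosomal lipase, by 0.94 ± 0.18. Abca1 did not pass without testes replicate 1 (adjusted p = 0.0506), nor Lipa without either testes array. Of 19 genes of cholesterol synthesis 2 were higher and 0 lower (median 0.48), and 0 in each reduced fit. That share of 10.5% higher was below the 27.8% of all genes. Dhcr7, a reductase at the end of cholesterol synthesis, differed by 1.01 ± 0.26.

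Of 17 retinoid genes 9 were higher and 0 lower (median 0.60, reduced fits 3, 2 and 4). Aldh1a1, a retinaldehyde dehydrogenase of Leydig and Sertoli cells, read 5.29 and 5.42 in testes and 2.70 to 3.62 in tubules (2.21 ± 0.20, adjusted p = 0.000585). Dhrs3, a retinaldehyde reductase, differed by 1.46 ± 0.25. Rarb, a retinoic acid receptor, was seen on no tubule array and did not pass without either testes array. The testes mean of Rarb did not exceed the floor of the tubule arrays. Aldh1a2, the dehydrogenase of germ cells, and Cyp26b1, a retinoic acid hydroxylase of the tubule wall, named after their values were seen, differed by -0.17 ± 0.15 and -0.16 ± 0.18.

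Of 19 paracrine ligands 7 were higher and 1 lower (median 0.42, reduced fits 3, 2 and 2 higher). The shares were 36.8% higher and 5.26% lower, beside 27.8% and 14.6% of all genes. Tgfb1 differed by 0.77 ± 0.09 and Csf1, the ligand of Csf1r, by 1.10 ± 0.20, the latter not passing without either testes array. Angpt2, a vessel ligand, was lower (-0.53 ± 0.09), but -0.14 without stages VII-VIII (adjusted p = 0.306), and it did not pass with normexp or without testes replicate 1 (0.182 and 0.0712). Of 17 receptors 4 were higher (23.5%, beside 27.8% of all genes) and 0 lower (median 0.27, and -0.02 with median scaling; reduced fits 3, 3 and 2), Csf1r, Prlr and Notch1 among the former. Notch1 differed by 0.43 ± 0.12 and did not pass under most alternatives. Of 13 interstitial transcription factors 5 were higher and 0 lower (median 0.30, and -0.07 with normexp; reduced fits 1, 1 and 1). Irf8, of myeloid cells, read -0.80 and -0.89 against -3.37 to -1.65 (1.56 ± 0.29, adjusted p = 0.00598) and Maf, of macrophages, differed by 1.37 ± 0.39, neither passing without either testes array. Tal1, of blood and endothelium, was at least 1.18-fold higher. Gli1, a hedgehog target, was seen on no tubule array, and its testes mean did not exceed the floor of those arrays. Of these transcription factors 38.5% were higher, beside 27.8% of all genes.

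Immediate early and heat shock genes were higher in 5 of 19 cases and lower in 2 (median 0.15, and -0.15 and -0.05 with median scaling and normexp; 0 higher in each reduced fit). The shares were 26.3% higher and 10.5% lower, beside 27.8% and 14.6% of all genes. Fos, the AP-1 subunit, was lower in testes (adjusted p = 0.0033) and not well above background there. It was at least 3.03-fold lower than stages I-III and 3.54-fold lower than stages VII-VIII. In stages IV-VI and IX-XII it was well above background on 1 array each. Junb, a partner of Fos named after its values were seen, differed by -0.96 ± 0.28, while Fosb differed by 1.43 ± 0.27 in the dimmest bin. The 2 probes of Hspa1b, an inducible chaperone, gave 0.66 and -0.78. Atf3, a stress factor, was seen on no tubule array, and its difference became -0.11 with normexp. The testes mean of Atf3 did not exceed the floor of the tubule arrays.

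The largest rises were not all interstitial genes. Pga5, a pepsinogen, read 2.79 and 2.75 in testes, was well above background on no tubule array and was at least 214-fold higher (adjusted p = 3.7e-06). Foxq1, a forkhead factor, read 7.09 and 7.05 against -1.55 to -0.45 (8.03 ± 0.21, adjusted p = 7.33e-06). Fbxo2, a ubiquitin ligase subunit, read 7.39 and 7.54 against 1.79 to 3.18, with probes differing by 0.84 to 4.92. All were far above the tubule range.

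Clic3 and 8030462N17Rik, both seen on no tubule array, were at least 5.86-fold and 4.98-fold higher. Ptms, parathymosin, differed by 4.44 with 1 probe and 1.80 with the other. Dgke and H4c6, a diacylglycerol kinase and a histone, differed by 4.03 ± 0.67 and 3.62 ± 0.16, Dgke being well above background on 1 of 8 tubule arrays. The defensins Defb11 and Defb15, well above background on 1 and 2 of 8 tubule arrays, differed by 4.58 ± 0.30 and 4.07 ± 0.32 on signals near background in tubules, but their Venus tubule levels of -1.68 to -0.01 and -2.51 to -1.10 were near the testes means of -0.63 and -1.49. The 12 largest rises, which also hold Hbb-bt and Cd163, were chosen for lying above the untreated tubules. Of these, 6 were also above all other groups with a value. The same held for 6.77% of all genes and 21.8% of those called higher by at least 2-fold.

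Of the largest falls, Olfr183, an olfactory receptor, and Nox3, an oxidase, were not well above background on the testes arrays. Olfr183 was at least 7.39-fold lower there. Nox3 was at least 6.71-fold lower than stages IV-VI and 10.2-fold lower than stages VII-VIII. In stages I-III and IX-XII it was not well above background either. Snhg3, a small nucleolar RNA host gene, read -0.67 and -0.58 in testes and 2.12 to 3.66 in tubules (-3.40 ± 0.16, adjusted p = 7.59e-05). Hdac2, a histone deacetylase, read -4.68 and -4.88 against -2.61 to -1.76 (-2.72 ± 0.15, adjusted p = 0.000165). Mdga2, not well above background on the testes arrays, was at least 3.06-fold lower there than in stages IV-VI. It was well above background on 1 array of stages I-III and on no array of stages VII-VIII and IX-XII. Caps2, Tmem38b, Net1 and Jazf1 differed by -2.91, -2.88, -2.66 and -2.45, and the 2 probes of Ap1ar gave -2.40 and -0.76. With Cst9 and Fos these make 12, chosen for lying below the untreated tubules, and 6 of them were also below every other group. The same held for 4.17% of all genes and 35.6% of those called lower by at least 2-fold.

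**Figure D5:**
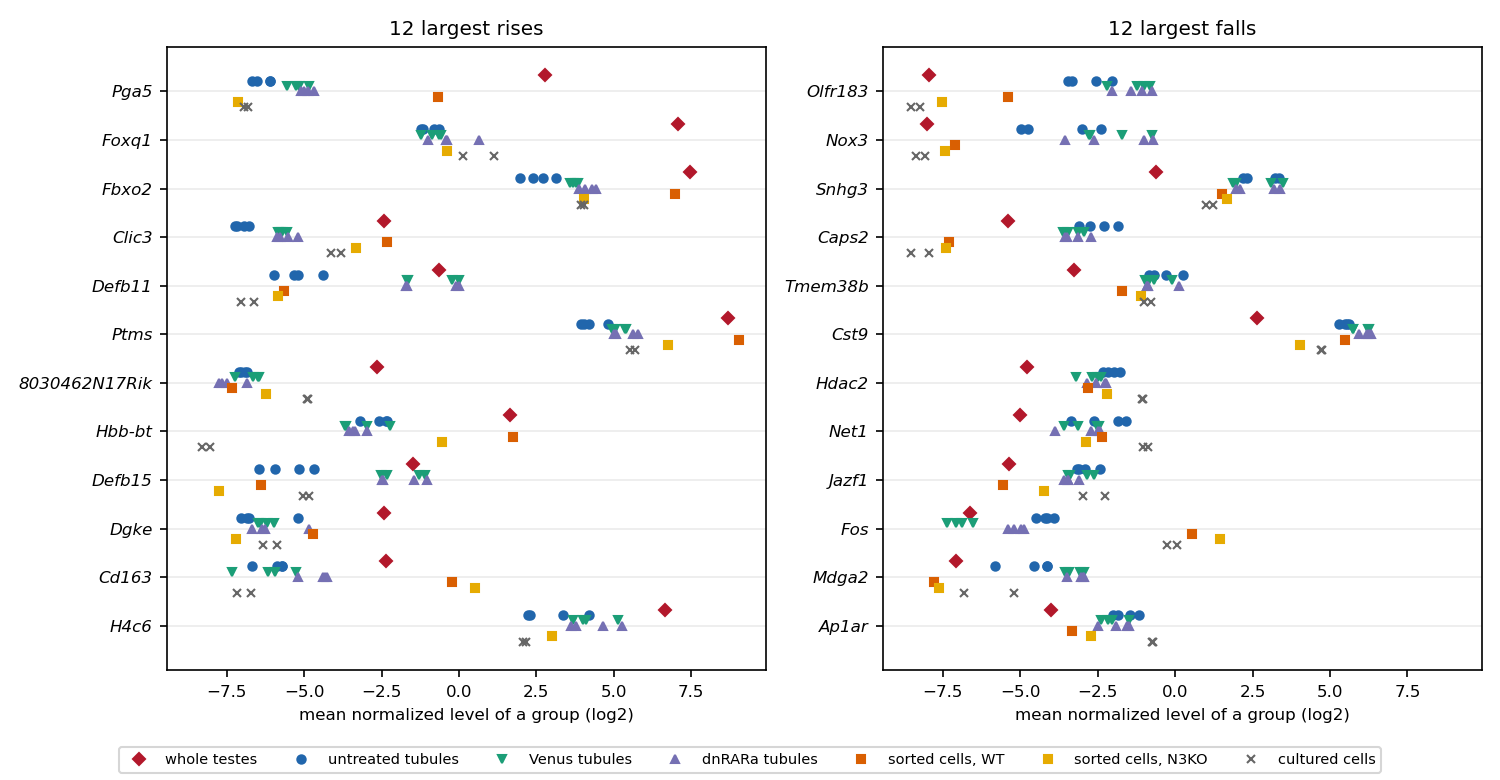
Mean level (log2, relative to the array's 75th percentile) in each of the 17 groups for the 12 largest rises (left) and 12 largest falls (right), a marker for each group. Pga5 and Foxq1 are higher in whole testes than in all other groups with a value, and Defb11 and Defb15 are near testes in Venus and dnRARa tubules.

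Differences from single stage groups were alike in number. Genes higher in whole testes made up 27.7% against stages I-III, 26.3% against IV-VI, 24.6% against VII-VIII and 26.6% against IX-XII, and 8.66% were higher and 3.49% lower than every stage group at once. Among the 4 stage groups themselves 51.4% of genes varied (F test). None of the 7 steroid genes that were higher did, with adjusted p of 0.223 for Fdxr and 0.927 to 0.990 for the other 6. The differences between tubule replicates of these genes enter the spread of this F test. A high p therefore does not show that their levels were equal among stages. Stra8, the retinoic acid target of premeiotic cells, read 3.22 and 3.36 in testes and 0.97 to 5.62 in tubules. It was 2.18 above stages IV-VI and at -2.25 against stages VII-VIII, so that its mean difference was 0.10 ± 0.22.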

How the data were processed

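Total RNA was hybridised to 1-colour Agilent arrays, 1 sample per array. Per the file headers, the deposited intensity values came from Agilent Feature Extraction 9.5.3.1, which subtracted background and detrended within each array; other deposited columns mark spots as well above background or as outliers. Nothing was scaled between arrays. Here log2 processed signal was taken minus the array's 75th percentile, over 43379 spots after 1639 control spots were left out. Of 41174 probes, 23374 were named by accession and 63 by symbol through RefSeq, and 17737 were not named. The brightest probe stood for a gene. Tested were genes detected, by the scanner software's mark, in both duplicates of 1 or more of the 5 groups, with limma 3.58.1 (R 4.3.3; lmFit, eBayes, 10 arrays, 5 residual degrees of freedom, two-sided, Benjamini-Hochberg). Samples were grouped by title, and p-values measure only the spread between these duplicates. In simulated data for this comparison (21491 genes, 50 changed at each size), changes of 0.5, 1, 2 and 3 in log2 were recovered in 4, 54, 84 and 92% of cases, with 2 false calls. The simulated noise was independent between arrays, with the same SD in every group and without slide or replicate effects. The false calls therefore do not measure errors from slide, scan day or ties between tubule arrays. Far fewer genes were changed there than the 42.4% called in the data, so the recovered shares do not carry over to this comparison.

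The samples, the 28 gene lists and the rules were chosen with earlier results of these data known. Named were all tested Leydig genes, up to 4 members of each other list by adjusted p, the 12 largest rises and falls outside the tubule range, and Nanos3, Stra8 and Sox9; a few such genes are left out of the text and of the single-gene alternatives, though list counts include them. Alternatives were other scalings, filters, probe rules and models, a slide block, Venus tubules, and leaving out each array or stage group.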

Additional observations from a re-analysis of the deposited data

Results flagged for a closer look

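For 7 named genes whole testes lay above 1 stage group of untreated tubules and below another, each at an adjusted p under 0.05, so that the mean over stages hides opposite differences. Alas2 was -0.54 against stages I-III and at least 82.1-fold higher than stages VII-VIII, where it was not well above background (F test among stage groups, limma adjusted p = 3.46e-05). Notch1 was -1.5 against stages VII-VIII and higher in testes than in the other stage groups, where it was not well above background and the bound on the fold is under 1 (0.000302). Stra8 was 2.18 against stages IV-VI and -2.25 against stages VII-VIII (0.000497). Hspa1b was 1.34 against stages I-III and -0.53 against stages VII-VIII (0.000717). Kdr was -1.10 against stages IV-VI and 1.28 against stages VII-VIII (0.000898), and Acta2 was 0.68 against stages IV-VI and -0.55 against stages IX-XII (0.00227). Ms4a1, a B cell gene of the dimmest bin, also met the threshold (0.00345), but it was well above background on neither testes array nor in stages VII-VIII, so its difference from them is between signals at background. Over all genes tested, 1826 (8.5%) had such a pattern. Groups of 2 arrays are too small for a test of outlying arrays.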

How the results depend on the processing

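Whole testes and tubules share no slide, duplicates limit the precision, and signals near background limit dim genes. The 7 steroid genes called higher kept their direction in every alternative run. Slide as a random block in the 5-group model could not be fitted and was not run; tubules as 1 group were added after seeing the data. The replicate number did not pair testes with tubules (correlations of replicate differences from -0.025 to 0.037), but it tied the tubule groups to one another (0.216 to 0.617), so the 8 tubule arrays are not independent. With tubules averaged within each number, 2 against 2, also added after seeing the data, 10683 genes were called, 7169 higher and 3514 lower, with steroid 7, macrophage 13 and round spermatid 9. A replicate block called 10376 genes, 6883 higher and 3493 lower.

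Counts of called genes follow for settings that moved them by over 1.5 times; list counts are genes higher unless said. Quantile normalization gave lymphocyte 1, mural 1 and elongating spermatid 5, and Tnp1 turned to -0.06. Median scaling gave 3200 higher and 5926 lower, mural 1, myoid 1 and spermatogonia 0. Normexp gave 3976 higher, lymphocyte 1, mural 0, fibroblast 4, spermatogonia 1 and elongating 5, and turned Atf3 to -0.11, Notch1 to -0.01, Odf2 to 0.00 and Prm2 to -0.19. Without the detection filter, myoid and spermatogonia each gave 1. Requiring detection on every array gave macrophage 7, lymphocyte 0 and mural 0. The mean of probes gave lymphocyte 1, and turned Cd4 to -0.02 and Hspa1b to -0.06. All 34 arrays in 1 model gave myoid 5 and round spermatid 9. The slide block gave 1581 called, 1216 higher and 365 lower, identity 4, lymphocyte 0, endothelial 1, mural 0, fibroblast 2, myoid 0, basement membrane 2, Sertoli 2, spermatogonia 0, spermatocyte lower 1, round 1 and elongating 6. With at least 2-fold, 3080 were called, 2535 higher and 545 lower, with mural 1, fibroblast 4, myoid 0, basement membrane 2, Sertoli 2, spermatogonia 0, spermatocyte lower 2 and round 1. Without stages VII-VIII, spermatogonia gave 1 and Alas2 turned to -0.02.

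Against Venus tubules 15874 genes were called, 9467 higher and 6407 lower, with macrophage 7, lymphocyte 1, lymphatic 2, mural 1, Sertoli 1 and round 11. There Actg2 turned to -0.01, Col4a1 to -0.23, Col6a1 to -0.34, Crabp1 to -0.25, Cspg4 to -0.41, Cyb5a to -0.28, Des to -1.12, Fbln1 to 0.36, Fdft1 to -0.19, Hspa1b to -0.34, Lipa to -0.32, Por to 0.32, Sohlh2 to -0.14, Tpm2 to -0.13 and Tubb3 to -0.63. The cause was not tested for any of these.

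Leaving out 1 array at a time gave 2608 to 11540 called genes, 1808 to 7178 higher and 800 to 4362 lower, the lowest counts without a testes array. The list ranges were steroid 4 to 7, identity 3 to 7, lymphocyte 1 to 2, endothelial 2 to 5, mural 0 to 2, fibroblast 2 to 8, myoid 1 to 4, basement membrane 2 to 6, spermatogonia 0 to 3, spermatocyte lower 2 to 7 and round 2 to 12.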
